A study of Rattus norvegicus with 21 samples.

Results

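The strain difference between ACI and Brown Norway (BN) rats was examined in the anterior pituitary gland before any estrogen was given. The members were the 3 ACI control arrays and the 3 BN control arrays of a series of 21 arrays, and all 31042 probe sets other than the 57 Affymetrix control probe sets, of 31099 in the table, were compared. The series also holds 3 control arrays of a further strain, Copenhagen (COP), and 4 arrays per strain from rats given diethylstilbestrol (DES), a synthetic estrogen. All rats were males of inbred strains. ACI and BN rats came from Harlan and COP rats from Charles River Laboratories. Control rats carried an empty Silastic implant from 9 weeks of age, DES-treated rats an implant with 5 mg of DES, and all were killed at 21 weeks, 4 hours after an injection of the thymidine analog BrdU at 50 mg/kg. Total RNA of each gland was hybridized to the Affymetrix Rat Genome 230 2.0 array, which gives 1 signal per probe set. The series design counts 3 biological replicates per control group, whereas the notes on the samples name 2 independent ones from 3 control males. Each array was read here as 1 rat. Nothing else in the labels says how the samples were kept apart, so p values measure the spread between these arrays.

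The anterior pituitary holds lactotrophs (prolactin), somatotrophs (growth hormone), gonadotrophs (luteinizing and follicle-stimulating hormone), thyrotrophs (thyroid-stimulating hormone) and corticotrophs (pro-opiomelanocortin), with folliculostellate, vascular and immune cells between them. Hypothalamic factors act on these cells through surface receptors, and several of the receptors signal through cyclic AMP. ACI rats are known for large lactotroph growth under estrogen and BN rats for a weak response, so the untreated glands give the state on which estrogen acts. In bulk tissue, fewer cells of a type and less RNA per cell cannot be told apart.

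The hormone genes Prl and Gh1 were strongly expressed on all 6 arrays. Prl, the prolactin gene, gave a signal of 24380, 32915 and 39379 on the ACI control arrays and 27024, 26121 and 29679 on the BN control arrays, and Gh1, growth hormone, 21833, 29845 and 42787 in ACI and 20519, 23638 and 26225 in BN. Of the 9 neural lobe and nerve markers with a probe set, 8 had a mean under the signal of 67.0 in both strains. That value is the lowest 40th percentile of any array, and means under it are called near the floor. The Y-linked genes Eif2s3y and Uty gave signals of 1033 or more on each of the 6 arrays, while Xist, which is transcribed from the inactive X chromosome, gave 15.6 to 21.7 in ACI and 36.8 to 38.4 in BN. The median signal of the 6 arrays lay between 141.4 and 152.1. The 3'/5' signal ratio of actin, which increases with RNA degradation, was 3.92 to 4.48 on the ACI arrays, and 3.68, 3.15 and 7.24 on the BN arrays, so BN array 3 stood apart.

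The 2 strains differed at 1308 of the 31042 probe sets (4.21%; limma, adjusted p under 0.05, two-sided), 663 of them (2.14%) higher and 645 (2.08%) lower in ACI. A further step took 1 probe set per gene, the one of highest mean signal, and 773 of 14217 genes (5.44%) were called, 386 (2.72%) higher and 387 (2.72%) lower in ACI. Of these, 270 differed at least 2-fold and 41 at least 4-fold on the log2(signal + 16) scale, which understates the differences of low signals. The 3 ACI values did not overlap the 3 BN values for 763 of the 773, against 26.0% of all genes. The calls rest on the same values, so this separation adds no support to them. The median log2 difference of all probe sets was 0.006. Leaving out BN array 1 left 849 called probe sets and leaving out ACI array 1 left 861. The count was 939 without BN array 3.

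**Figure D1:**
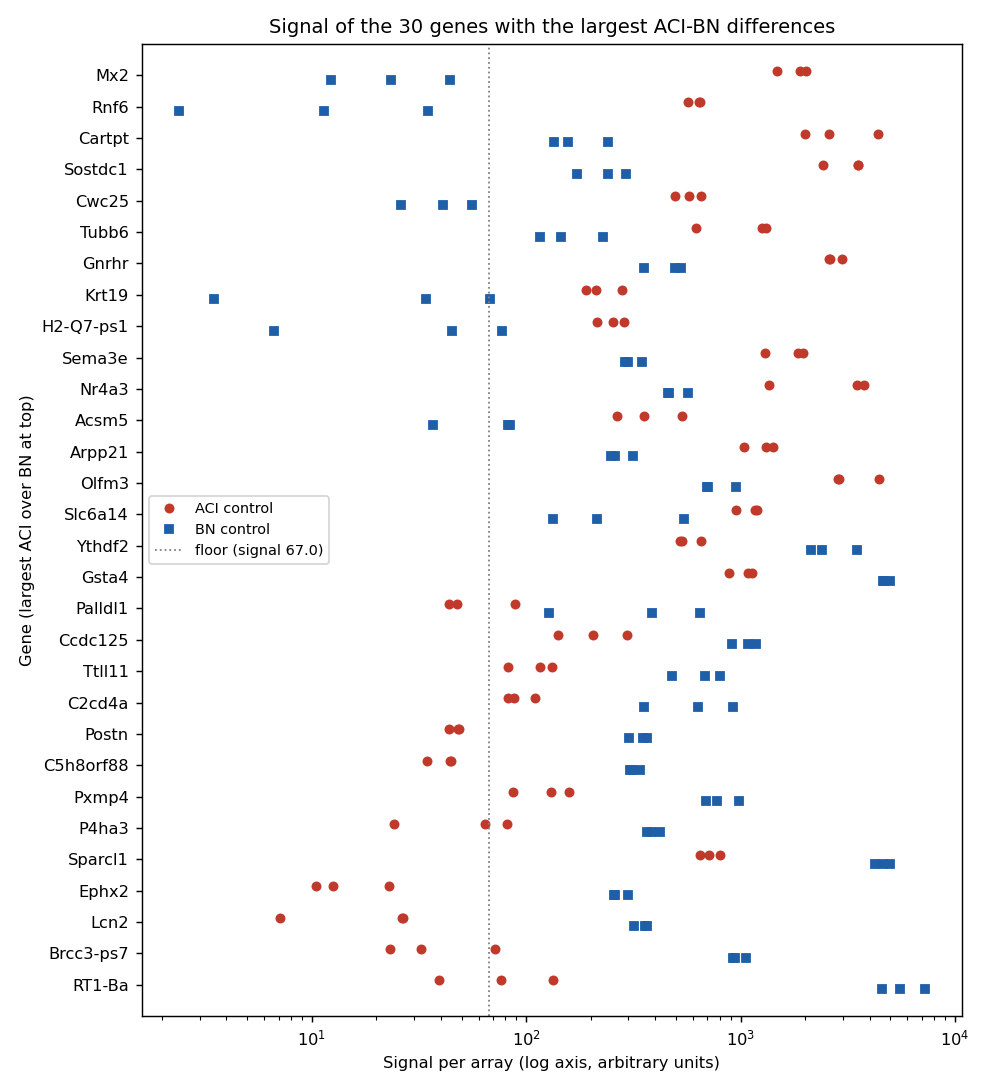
Signal of each of the 3 ACI control arrays (circles) and 3 BN control arrays (squares) on a log axis for the 15 genes with the largest positive and the 15 with the largest negative ACI minus BN difference, ordered by that difference. The groups do not overlap for any of the 30, which the rule for choosing them required, and several lower groups lie left of the dotted line at 67.0.

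The 15 genes most strongly higher in ACI included a hypothalamic hormone receptor, Gnrhr, secreted factors such as Cartpt, Sostdc1 and Sema3e, and the nuclear receptor Nr4a3. Gnrhr, the receptor through which hypothalamic gonadotropin-releasing hormone drives gonadotrophs, gave 2625, 2981 and 2574 in ACI and 527, 493 and 355 in BN. It was 5.86-fold higher in ACI (log2 difference 2.55, SE 0.23, adjusted p = 1.91e-07), and the ACI values lay well apart from the BN values. Its second probe set gave a log2 difference of 1.51. Cartpt, the precursor of the peptide CART, gave 4360, 2006 and 2590 in ACI and 157, 135 and 242 in BN, a log2 difference of 3.91 (SE 0.42, adjusted p = 1.97e-06). Sostdc1, a secreted antagonist of BMP and Wnt signaling, gave 3513, 3540 and 2411 in ACI and 292, 172 and 241 in BN (log2 difference 3.67, adjusted p = 3.4e-08). Sema3e, a secreted semaphorin that guides axons and vessels, gave 1957, 1305 and 1852 in ACI and 300, 348 and 290 in BN (log2 difference 2.37). In each of these genes the ACI arrays lay several-fold above the BN arrays.

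Arpp21, a phosphoprotein regulated by cyclic AMP, gave 1319, 1034 and 1421 in ACI and 259, 317 and 248 in BN, a log2 difference of 2.13 (SE 0.17), and a second of its probe sets gave 1.64. Olfm3, a secreted olfactomedin, gave 2856, 2870 and 4402 in ACI and 697, 707 and 949 in BN (log2 difference 2.07). Tubb6, a beta-tubulin, gave 1263, 1317 and 620 in ACI and 145, 228 and 116 in BN (log2 difference 2.57). For Tubb6 a second probe set gave 0.56, and so the size rests on the probe set chosen. Slc6a14, an amino acid transporter, gave 1198, 957 and 1164 in ACI and 213, 133 and 547 in BN (log2 difference 2.06, adjusted p = 0.0046), with 1 BN array clearly above the other two.

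For 5 of the 15 genes the BN mean was near the floor, so that the size of the difference is uncertain. The largest was Mx2, an interferon-induced GTPase, with 1887, 2029 and 1479 in ACI and 44.3, 23.3 and 12.3 in BN (log2 difference 5.47, SE 0.30, adjusted p = 8.7e-11). The second Mx2 probe set went the other way, with a mean of 102 in ACI and 449 in BN (log2 difference -1.99). Rnf6, a ubiquitin ligase, gave 645, 641 and 570 in ACI and 11.4, 35.0 and 2.4 in BN (log2 difference 4.42), and Cwc25, a splicing factor, gave 653, 578 and 492 in ACI and 56.1, 41.1 and 26.2 in BN (log2 difference 3.39). Krt19, an epithelial keratin, and H2-Q7-ps1, annotated as a pseudogene of MHC class I, had log2 differences of 2.47 and 2.39. Acsm5, an acyl-CoA synthetase with a BN mean of 67.7, just above the floor, gave 354, 264 and 532 in ACI and 82.4, 84.0 and 36.8 in BN.

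Of the 15 genes most strongly lower in ACI, 7 had an ACI mean near the floor. RT1-Ba, the alpha chain of an MHC class II molecule, gave 39.2, 76.0 and 133 in ACI and 5545, 4560 and 7242 in BN, the largest difference of all named genes (log2 difference -5.97, SE 0.51, adjusted p = 8.93e-08). Its 4 probe sets did not move together. A second gave -6.86, another -0.47 and the last 2.42, with means of 261 in ACI and 33.4 in BN for the last. RT1-Bb, the beta chain of the same molecule, had a log2 difference of 0.28 (adjusted p = 0.793). Whether sequence differences between the strains under the probes affect the RT1-Ba signals was not tested. Sparcl1, a matrix glycoprotein, gave 803, 709 and 647 in ACI and 4960, 4230 and 4613 in BN (log2 difference -2.65, adjusted p = 1.8e-07).

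Lcn2, a lipocalin that binds bacterial siderophores, gave 7.1, 26.4 and 26.6 in ACI and 366, 318 and 357 in BN (log2 difference -3.38). Ephx2, the soluble epoxide hydrolase, gave 23.0, 10.5 and 12.6 in ACI and 257, 260 and 298 in BN (log2 difference -3.22). Pxmp4, a peroxisomal membrane protein, gave 130, 158 and 87.1 in ACI and 983, 773 and 686 in BN (log2 difference -2.57), and its second probe set gave -2.24. In these genes the BN values were close together, and the ACI values of Lcn2 and Ephx2 were all near the floor. P4ha3, a subunit of collagen prolyl hydroxylase, and Postn, the matrix protein periostin, had log2 differences of -2.57 and -2.49. Ythdf2, a reader of methylated RNA, gave 522, 531 and 653 in ACI and 2131, 2386 and 3477 in BN (log2 difference -2.17), while its second probe set gave 0.09.

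The remaining genes of the 15 were Brcc3-ps7, C5h8orf88, C2cd4a, Ttll11, Ccdc125, Palldl1 and Gsta4, with log2 differences of -4.17, -2.55, -2.48, -2.40, -2.27, -2.20 and -2.19. Palldl1 lost its call without ACI array 1 or 2 or BN array 1 or 2, with an adjusted p of up to 0.0923, and its 3 BN values ran from 128 to 644. More widely, 4525 genes had 2 or more probe sets, 67 of them had 2 or more called, and in 10 of the 67 the called probe sets pointed in opposite directions. Besides Mx2 and RT1-Ba these were Chmp1b, Cyb5b, Glcci1, Ip6k2, Klc1, Lysmd4, Rab14 and Tmem248. Tmem248 had a log2 difference of -1.17 with means of 2262 in ACI and 5082 in BN at one probe set, and of 1.40 with means of 1217 in ACI and 452 in BN at another. Of the 276 called genes with further probe sets, 54 had one called in the same direction and 215 had no other called. Probe sequences were not available, so no probe set named here was checked for sequence differences between the strains.

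The hormone genes themselves were not called. Lhb, the beta subunit of luteinizing hormone, gave 14696, 19292 and 15938 in ACI and 16832, 12337 and 13067 in BN (log2 difference 0.25, 95% interval -0.04 to 0.53, adjusted p = 0.46). Fshb, the follicle-stimulating hormone subunit, had a log2 difference of 0.07 (95% interval -0.20 to 0.34), Cga, the subunit shared by these hormones, 0.20 (-0.22 to 0.62) and Tshb, of thyroid-stimulating hormone, 0.07 (-0.33 to 0.46). Prl had 0.20 (-0.23 to 0.62), Gh1 0.38 (-0.05 to 0.81) and Pomc, the corticotroph prohormone, -0.86 (-2.0 to 0.29). Prl, Gh1, Cga and Tshb lay at the top of the signal scale, at 70.1% to 96.5% of the highest signal of the same array on the 6 arrays, and Prl was the highest probe set on 7 of the 21 arrays of the series. Whether these probe sets were saturated was not tested, and their differences and intervals cannot bound the difference in RNA. Lhb and Fshb, at 24.3% to 59.0% of the array maximum, had intervals that leave out a 2-fold difference, and that of Pomc includes one. The Pomc signal was low, at 0.17% to 1.27% of the array maximum (235, 194 and 83.8 in ACI, 217, 373 and 329 in BN). The estrogen receptor gene Esr1 was not called either (0.17, -1.12 to 1.47), with values of 66.2, 116 and 22.6 in ACI and 76.9, 132 and 5.1 in BN. Its means of 68.1 in ACI and 71.3 in BN lay just above the floor of 67.0, so the missing call says little. The oncogene Myc gave 186, 185 and 115 in ACI and 78.6, 103 and 79.3 in BN without overlap (log2 difference 0.77, adjusted p = 0.12). It was called with the replicate number as a block (adjusted p = 0.0117), with the block for the sets of numbers 1 and 2 against 3 and 4 (0.00692) and with arrays numbered 1 and 2 only (log2 difference 0.92, 0.00498), and adjusted p ran from 0.0599 to 0.635 over the other alternatives. The neighbouring non-coding gene Pvt1 had -0.11.

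Some receptors and lineage factors of the hormone cells were called. Drd2, the dopamine receptor through which the hypothalamus restrains prolactin, gave 4026, 4341 and 3523 in ACI and 2048, 1696 and 1704 in BN (log2 difference 1.12, SE 0.17, adjusted p = 0.000206). Pou1f1, the factor that specifies lactotrophs, somatotrophs and thyrotrophs, gave 8801, 9490 and 9123 in ACI and 6267, 6966 and 7165 in BN (log2 difference 0.43). Its adjusted p was 0.0547 without BN array 1, and its second probe set gave 0.31 (adjusted p = 0.345). Drd2 and Pou1f1 are lactotroph markers, the 2 called of 6 (33.3%, against 5.44% of all genes). All 6 markers of that list had a positive difference, with a median of 0.35 against 0.005 for all genes. The count was 5 of 6 without ACI array 2, without BN array 3 and with arrays numbered 1 and 2 only. The 6 include Prl, whose saturation was not tested, and Esr1, just above the floor, and neither was called. Pou1f1 also belongs to the somatotroph list, in which 5 of 7 differences were negative, with a median of -0.10. Of the 8 gonadotroph markers Gnrhr was the single called one (12.5%, against 5.44% of all genes), and the list's median was 0.04. No thyrotroph or corticotroph and melanotroph marker was called.

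Of 19 hypothalamic and peptide receptors, 3 were called higher (Gnrhr, Drd2 and Npy1r, a neuropeptide Y receptor) and 2 lower (Sstr3, a somatostatin receptor, and Ghrhr, the receptor for growth hormone-releasing hormone), 26.3% against 5.44% of all genes. Npy1r was near the floor in both strains, with means of 51.6 in ACI and 5.73 in BN. Sstr3 gave 158, 168 and 161 in ACI and 420, 424 and 343 in BN (log2 difference -1.20, adjusted p = 2e-06). Ghrhr gave 418, 419 and 548 in ACI and 1045, 1214 and 573 in BN (log2 difference -0.95), with 1 BN array close to the ACI values. At a second Ghrhr probe set the log2 difference was -0.74 (adjusted p = 0.156). Without ACI array 1 or 2 or BN array 1 or 2 the adjusted p of Ghrhr passed 0.05, up to 0.196, and Npy1r lost its call without the same arrays (up to 0.0821). Pappa2, a protease that cleaves IGF-binding proteins and a member of the somatotroph list, gave 379, 401 and 557 in ACI and 1366, 1295 and 1062 in BN (log2 difference -1.46, adjusted p = 0.0001). Another Pappa2 probe set gave -0.90 (adjusted p = 0.243). Of 13 lineage transcription factors, 3 were called higher (Pou1f1, Pitx1 and Six6), 23.1% against 5.44% of all genes, and 10 were not called. Without ACI array 2, BN array 1 or BN array 3 there was 1 called factor. Penk, the enkephalin precursor, gave 2936, 2302 and 2252 in ACI and 4734, 4823 and 4863 in BN (log2 difference -0.95), and Vgf, a granin-like neuropeptide precursor, gave 1453, 793 and 426 in ACI and 199, 219 and 286 in BN (log2 difference 1.70).

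**Figure D2:**
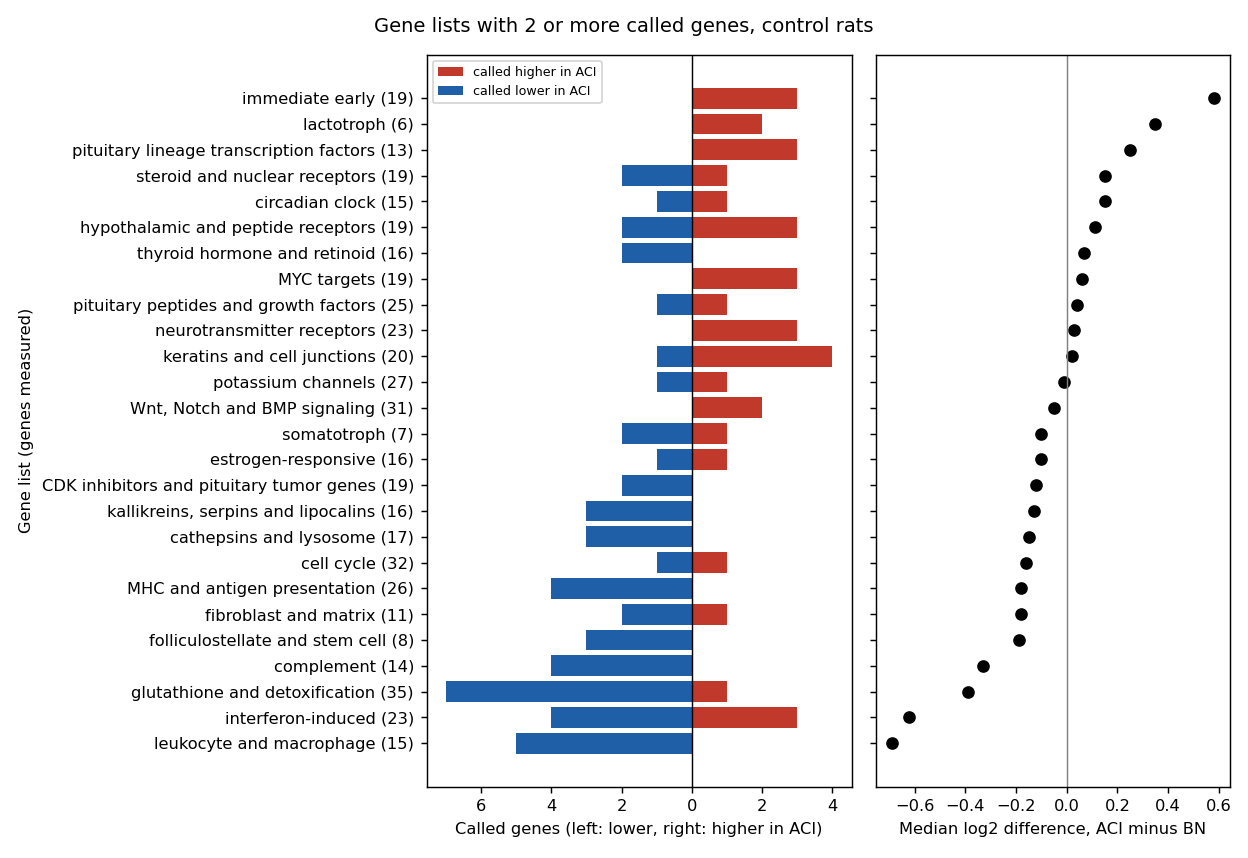
Gene lists with at least 2 called genes, ordered by the median log2 difference (ACI minus BN) of all their measured genes, which the right panel shows. Bars count genes called higher in ACI to the right of 0 and lower to the left, and the immediate early list (median 0.58) and the leukocyte and macrophage list (median -0.69) lie at the ends.

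Immediate early genes, which are transcribed within minutes of stimulation and in endocrine cells answer to cyclic AMP and calcium, had the highest median of the lists with at least 2 called genes. A positive difference was found for 17 of 19 genes with a median of 0.58, but only 3 were called, Nr4a3, Nr4a2 and Arc. That was 15.8%, against 5.44% of all genes. Nr4a3, an orphan nuclear receptor, gave 3749, 3489 and 1360 in ACI and 463, 461 and 569 in BN (log2 difference 2.36, adjusted p = 0.000154), and its other probe sets gave 2.57 and 1.74. Nr4a2, its paralog, gave 1385, 945 and 361 in ACI and 185, 179 and 175 in BN (log2 difference 2.03). Arc, a synaptic immediate early gene, gave 493, 745 and 283 in ACI and 127, 128 and 131 in BN (log2 difference 1.75). ACI array 3 was the lowest ACI array for all 3 and still lay above every BN array. The uncalled Fos, named after its values were seen, gave 1575, 4416 and 629 in ACI and 788, 304 and 721 in BN, with overlap. The list had 6 called genes and a median of 1.05 without ACI array 3. Among COP control arrays the third was high, with 705 for Nr4a2 against 188 and 174 on the other two, so these genes varied between rats of 1 strain. The GAPDH 3'/5' ratio was 1.61 on ACI array 3 and 1.26 on the other ACI arrays, and its part in the result was not tested.

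Crem, which encodes activators and repressors that bind the cyclic AMP response element, was picked out after its values were seen. It gave 6318, 6990 and 8062 in ACI and 1499, 2435 and 2284 in BN (log2 difference 1.80, SE 0.24, adjusted p = 4.44e-05). Unlike Nr4a3 it was highest on ACI array 3. Per1, a clock gene that cyclic AMP also induces, gave 1101, 830 and 754 in ACI and 414, 458 and 339 in BN (log2 difference 1.11, adjusted p = 0.00058).

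Because several of these genes are known targets of cyclic AMP, the letters of the full cyclic AMP response element, TGACGTCA, which read the same on both strands, were searched in RefSeq promoters of build GRCr8 (250 bases before to 50 bases after each start, from the BN reference genome). The shorter site TGACG, with CGTCA for the other strand, is contained in the full site and was searched too. Both motifs were chosen after the values were seen and after a first look at the promoters of a few of the genes named here, and no other motif was searched. The full site occurred in 1.83% of all 33469 listed promoters and in at least 1 promoter of 2.93% of the 11733 measured genes that had any. Of the 299 genes called higher in ACI with a promoter, 27 held it (9.03%), and of the 315 called lower, 4 (1.27%). Genes named here, Cartpt, Vgf and Crem among them, were not left out of the 27. The shorter site was found in 35.1% of the higher and 26.3% of the lower genes, against 30.1% of all measured genes with a promoter. Over 20 alternative settings, which reuse the same arrays, the share with the full site ran from 6.1% to 9.81% among genes called higher. Among those called lower it ran from 0.79% to 2.5%. These are counts of letters with no test, and a gene with several starts had more chances to hold them. The site contains the letters CG, and how common CG is in the promoters was not compared between the sets. Of the 104 genes that the naming rule chose, 77 had a promoter and 5 held the full site: Cartpt, Vgf and Ldha, which were higher in ACI, and RT1-Ba and Meg3, which were lower. Nr4a2, named above, held only the shorter site and Per1 neither, while Nr4a3 and Arc had no listed promoter.

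The promoters of the 2 secreted neuropeptide precursors, of the Crem start with 2 full sites and of RT1-Ba, the most strongly lower gene, are shown with every full or shorter site in capitals. Crem has 3 listed starts, of which 2 hold the full site. The windows are Cartpt at chr2:32991186-32991485 (minus strand), Vgf at chr12:25276971-25277270 (minus strand), Crem at chr17:58985240-58985539 (plus strand) and RT1-Ba at chr20:4576807-4577106 (plus strand). The first base of the full site lies at -142 in Cartpt, -90 in Vgf, -35 and 40 in Crem and -69 in RT1-Ba, counted from the first transcribed base as 1.
Cartpt: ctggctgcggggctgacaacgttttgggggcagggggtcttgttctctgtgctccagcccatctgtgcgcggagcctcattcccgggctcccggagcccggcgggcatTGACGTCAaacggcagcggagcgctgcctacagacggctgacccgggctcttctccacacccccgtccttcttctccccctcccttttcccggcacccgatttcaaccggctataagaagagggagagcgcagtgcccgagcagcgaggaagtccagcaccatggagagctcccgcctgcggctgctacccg
Vgf: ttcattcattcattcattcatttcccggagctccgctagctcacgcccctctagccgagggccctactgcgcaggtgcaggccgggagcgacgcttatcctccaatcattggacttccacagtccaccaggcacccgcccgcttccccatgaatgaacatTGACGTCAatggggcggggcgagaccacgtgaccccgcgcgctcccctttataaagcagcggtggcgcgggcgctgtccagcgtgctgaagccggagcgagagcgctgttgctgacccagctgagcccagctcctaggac
Crem: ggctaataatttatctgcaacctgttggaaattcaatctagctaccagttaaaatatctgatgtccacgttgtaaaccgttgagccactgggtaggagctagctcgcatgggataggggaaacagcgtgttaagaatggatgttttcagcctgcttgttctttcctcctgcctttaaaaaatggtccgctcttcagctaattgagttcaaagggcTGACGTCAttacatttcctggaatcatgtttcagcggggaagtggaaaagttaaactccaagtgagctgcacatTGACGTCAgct
RT1-Ba: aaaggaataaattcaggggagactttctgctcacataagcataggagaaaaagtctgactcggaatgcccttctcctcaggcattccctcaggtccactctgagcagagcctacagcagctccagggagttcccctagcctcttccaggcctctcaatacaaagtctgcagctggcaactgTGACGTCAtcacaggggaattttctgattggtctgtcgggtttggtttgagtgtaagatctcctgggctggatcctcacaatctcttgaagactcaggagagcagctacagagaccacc

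Leukocyte and macrophage genes had the lowest median of the 46 lists. Of 15 measured, 14 had a negative difference, with a median of -0.69, and 5 were called lower (Ptprc, C1qa, C1qc, Csf1r and Laptm5) and none higher, against 2.72% of all genes in each direction. C1qa, a chain of complement C1q that macrophages make, gave 851, 795 and 1002 in ACI and 1825, 1505 and 1707 in BN (log2 difference -0.92, adjusted p = 0.00909). Ptprc, the pan-leukocyte antigen CD45, gave 125, 127 and 132 in ACI and 237, 203 and 308 in BN (log2 difference -0.86). A second Ptprc probe set gave -0.68 (adjusted p = 0.519). The calls were few without single arrays, 1 without ACI array 2 or BN array 3 and 2 without ACI array 1 or BN array 1, while 14 of the 15 differences stayed negative each time. The adjusted p of C1qa reached 0.054 and that of Ptprc 0.0944 in these fits. The signal summed over the list was 8835 to 10858 in ACI and 12138 to 14977 in BN, with no overlap, and the defining markers Ptprc and Csf1r were above the floor in both strains.

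Of 14 complement genes, 4 were called lower (C3, C1qa, C1qc and C1s), against 2.72% of all genes, and 10 were not called. The leukocyte list also holds 2 of the 4. C3, the central complement component, gave 451, 518 and 421 in ACI and 1528, 901 and 1558 in BN (log2 difference -1.45). Without ACI array 2 there was 1 called gene in the complement list, and without any 1 BN array there were 2. Of 26 genes of MHC and antigen presentation, 4 were called lower (RT1-Ba, RT1-S3, RT1-DMa and Psmb8) and none higher. That was 15.4% against 5.44% of all genes, and the list's median was -0.18. RT1-S3 had a log2 difference of -0.55, and its other probe sets gave -0.40, -0.17 and 0.15. Psmb8, an immunoproteasome subunit, lost its call without any 1 of the 6 arrays (adjusted p up to 0.158). The MHC count was 2 without ACI array 3 or BN array 3. Interferon-induced genes were split, with 3 called higher (Mx2, Ifitm1 and Ifi27) and 4 lower (Gbp2, Irf1, Mx1 and Bst2) of 23 and a median of -0.62. Together the called ones were 30.4%, against 5.44% of all genes. Ifitm1, a membrane protein that restricts virus entry, gave 1894, 1853 and 1851 in ACI and 405, 475 and 641 in BN (log2 difference 1.87, adjusted p = 3.4e-05). Gbp2, an interferon-induced GTPase, gave 225, 220 and 210 in ACI and 578, 507 and 858 in BN (log2 difference -1.47). Ifitm1 and its neighbour on chromosome 1, Ifitm2, had log2 differences of 1.87 and -0.75.

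Of 35 genes of glutathione conjugation and detoxification, 7 were called lower and 1 higher, 22.9% against 5.44% of all genes, and 27 were not called. The median of the 35 was -0.39. Gsta4, a glutathione transferase that conjugates lipid aldehydes, gave 1134, 1083 and 883 in ACI and 4644, 4597 and 4982 in BN (log2 difference -2.19, SE 0.17, adjusted p = 2.12e-08). Gsta1, of the same class, gave 914, 894 and 863 in ACI and 3499, 3417 and 3143 in BN (log2 difference -1.89). Nqo2, a quinone reductase, gave 232, 183 and 201 in ACI and 705, 734 and 741 in BN (log2 difference -1.75). In Gsta4, Gsta1 and Nqo2 the values lay close together within each strain and far apart between strains. The exception was Gstt2, a theta-class transferase, with 559, 472 and 613 in ACI and 223, 250 and 216 in BN (log2 difference 1.19). Paralogs of the transferases are alike in sequence, and probe sets could share signal between them.

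Folliculostellate and stem cell markers included 3 of 8 called lower and none higher, against 2.72% of all genes in each direction. The difference was positive for 4 of the 8, and the list's median was -0.19. S100b, the defining marker of these supporting cells, gave 1650, 1706 and 1346 in ACI and 3404, 3194 and 3091 in BN (log2 difference -1.04, adjusted p = 0.00032). Aldh1a2, a retinoic acid synthase, had -1.03 and Fxyd1, a regulator of the sodium pump, -0.62. Fxyd1 lost its call without any 1 of the 6 arrays, up to an adjusted p of 0.206, and Aldh1a2 without ACI array 2, BN array 1 or BN array 3, up to 0.0765. The summed signal of the list was 12242 to 14336 in ACI and 14714 to 16342 in BN. Fibroblast and matrix genes went both ways. Dcn, the proteoglycan decorin, gave 7188, 5777 and 7015 in ACI and 1684, 2419 and 3017 in BN (log2 difference 1.52, adjusted p = 0.0162), and lost its call without ACI array 1 or 3 or BN array 1 (up to 0.112), whereas Postn and Fn1, fibronectin, were lower (-2.49 and -1.02). Fn1 lost its call without ACI array 1 or 3 or BN array 3 (up to 0.0773). The globin gene Hba-a3 was higher in ACI (log2 difference 1.26, adjusted p up to 0.0804 without ACI array 3 or BN array 1). The summed signal of the 5 red blood cell genes was 16047 to 27852 in ACI and 8524 to 15056 in BN. Most of that sum came from Hbb, another globin gene, which was not called (log2 difference 0.80, adjusted p = 0.512). Hbb gave 13576, 18439 and 23663 in ACI and 7501, 13348 and 11143 in BN. In COP controls Hba-a3 averaged 222, while Hbb gave 19969, 18391 and 15054. The part of blood in other differences was not tested.

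Of 32 cell cycle genes, 1 was called higher and 1 lower, 6.2% and so near the 5.44% of all genes. Ccnd1, cyclin D1, gave 2193, 1964 and 2109 in ACI and 985, 884 and 1104 in BN (log2 difference 1.07, adjusted p = 0.000553), with 0.81 and 0.59 at its other probe sets. Cdkn1b, the cyclin-dependent kinase inhibitor p27 and not one of the 32, gave 3980, 3945 and 3970 in ACI and 6223, 6690 and 4930 in BN (log2 difference -0.57, adjusted p = 0.00094). Its second probe set gave 0.01, with means of 83.8 in ACI and 78.6 in BN. Aurkb, a mitotic kinase, gave 203, 153 and 222 in ACI and 638, 506 and 482 in BN (log2 difference -1.42). No gene was called among 25 of the respiratory chain, 27 of G protein and cyclic AMP signaling, 24 calcium and sodium channels, 20 of lipid synthesis, 15 of vesicle fusion and 14 of apoptosis. In all, 34 of 702 listed genes were called higher and 48 lower (11.7%).

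In COP control rats, most called genes lay closer to ACI. The COP mean lay nearer to the ACI than to the BN mean for 573 of the 773 called genes and nearer to BN for 200. These comparisons share the ACI and BN control arrays with the selection of the genes, and the same count over all genes was not made. Mx2 gave 2434, 2413 and 1979 in COP, and Gnrhr 2424, 2414 and 3076, close to ACI in both. Lcn2 gave 377, 399 and 451 and Gsta4 4683, 5222 and 6260, close to BN. Nr4a3 gave 548, 462 and 1364 in COP. COP minus BN was called at 3.57% of probe sets and ACI minus COP at 0.741%.

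**Figure D3:**
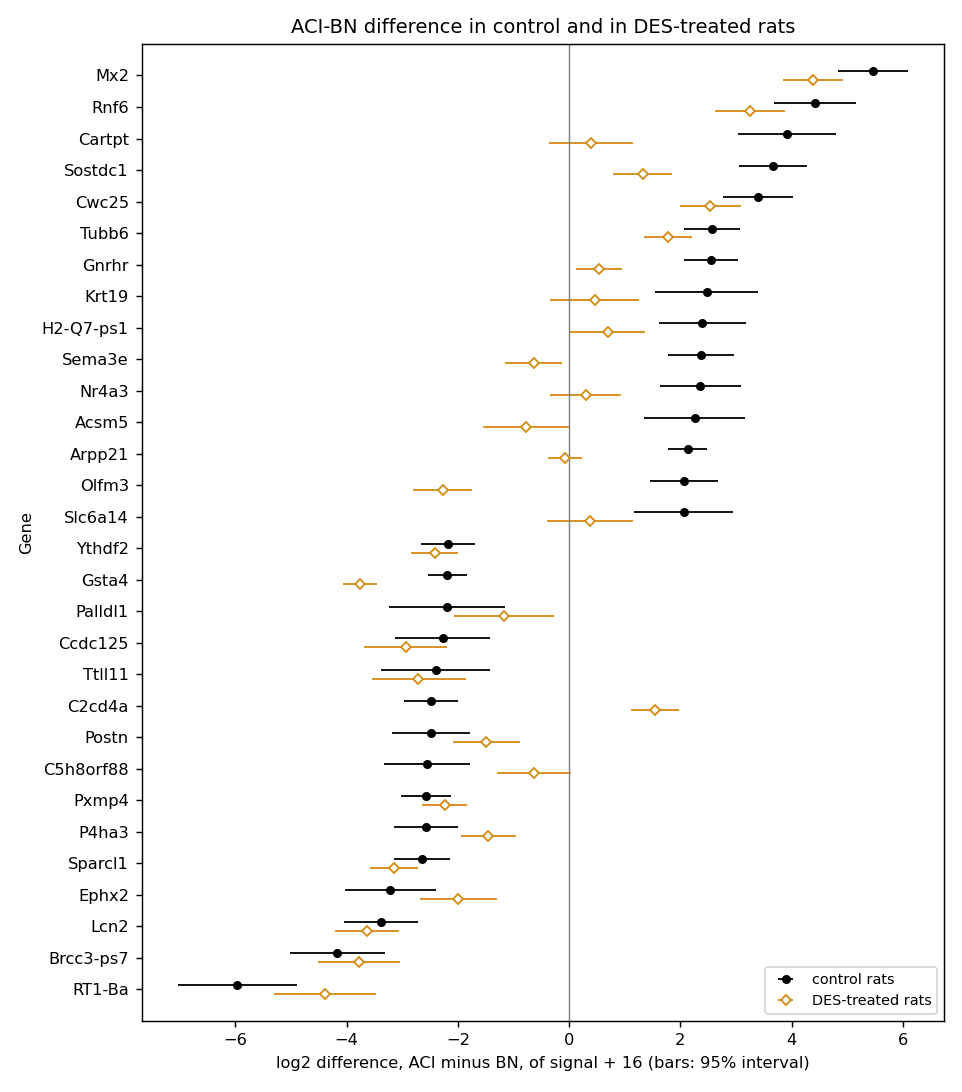
log2 difference (ACI minus BN) with its 95% interval for the 30 genes with the largest differences, in control rats (filled circles, 3 arrays per strain) and in DES-treated rats (open diamonds, 4 arrays per strain). Most genes lower in ACI keep a negative difference in DES-treated rats, whereas many of the genes higher in ACI lie near 0, and Olfm3 and C2cd4a lie on the opposite side.

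The arrays of DES-treated rats, which the control comparison did not use, gave a second look at the strain difference, although the fit shares 1 estimate of the spread. After DES, ACI and BN differed at 21.2% of probe sets and 28.4% of genes, 12.7% of genes higher and 15.7% lower in ACI. Of the 773 genes called in controls, 393 (50.8%) were called with the same sign after DES, 79 with the opposite sign, and 301 were not called. The control difference itself differed from the DES difference for 275 genes (35.6%), against 13.1% of all genes, and this test shares the control arrays that chose the genes. Without ACI array 1 or BN array 1, the probe sets called in controls whose difference differed after DES numbered 266 and 270, against 429 with all arrays. Over all probe sets the change was called for 8.84%.

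The 15 genes most strongly lower in ACI mostly stayed so. For 12 of them the difference was called with the same sign, and for 1, C2cd4a, with the opposite sign. RT1-Ba averaged 153 in ACI and 3447 in BN after DES (log2 difference -4.39), and Sparcl1 580 in ACI and 5193 in BN (-3.14). Lcn2 had -3.63, Pxmp4 -2.24 and Ythdf2 -2.42. Gsta4 was further apart after DES, with 168 ± 52.2 in ACI and 2400 ± 63.1 in BN (SD, n = 4 each, log2 difference -3.76), and the change in its difference was called (adjusted p = 5.81e-05). C2cd4a, a nuclear protein of endocrine cells, gave 110, 87.8 and 82.7 in ACI and 630, 356 and 921 in BN controls, but averaged 1156 in ACI and 384 in BN after DES (log2 difference 1.55).

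Of the 15 genes most strongly higher in ACI, 5 kept a called difference of the same sign, 1 was called with the opposite sign and 9 were not called. Mx2, Rnf6, Cwc25, Tubb6 and Sostdc1 were the 5, with log2 differences after DES of 4.39, 3.25, 2.54, 1.77 and 1.32. Gnrhr averaged 248 ± 36.4 in ACI and 176 ± 74.4 in BN (SD, n = 4 each, log2 difference 0.53, adjusted p = 0.0644), and its control difference exceeded that by 2.01 (adjusted p = 0.000165). Cartpt averaged 440 in ACI and 284 in BN (log2 difference 0.40). Arpp21 averaged 393 in ACI and 416 in BN (-0.08). Olfm3 turned over, with 645, 607, 597 and 759 in ACI and 2049, 2207, 5864 and 3894 in BN after DES, without overlap (log2 difference -2.27, adjusted p = 6.42e-07). Crem had -0.03 after DES, and its control difference exceeded that by 1.82 (adjusted p = 0.000669).

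**Figure D4:**
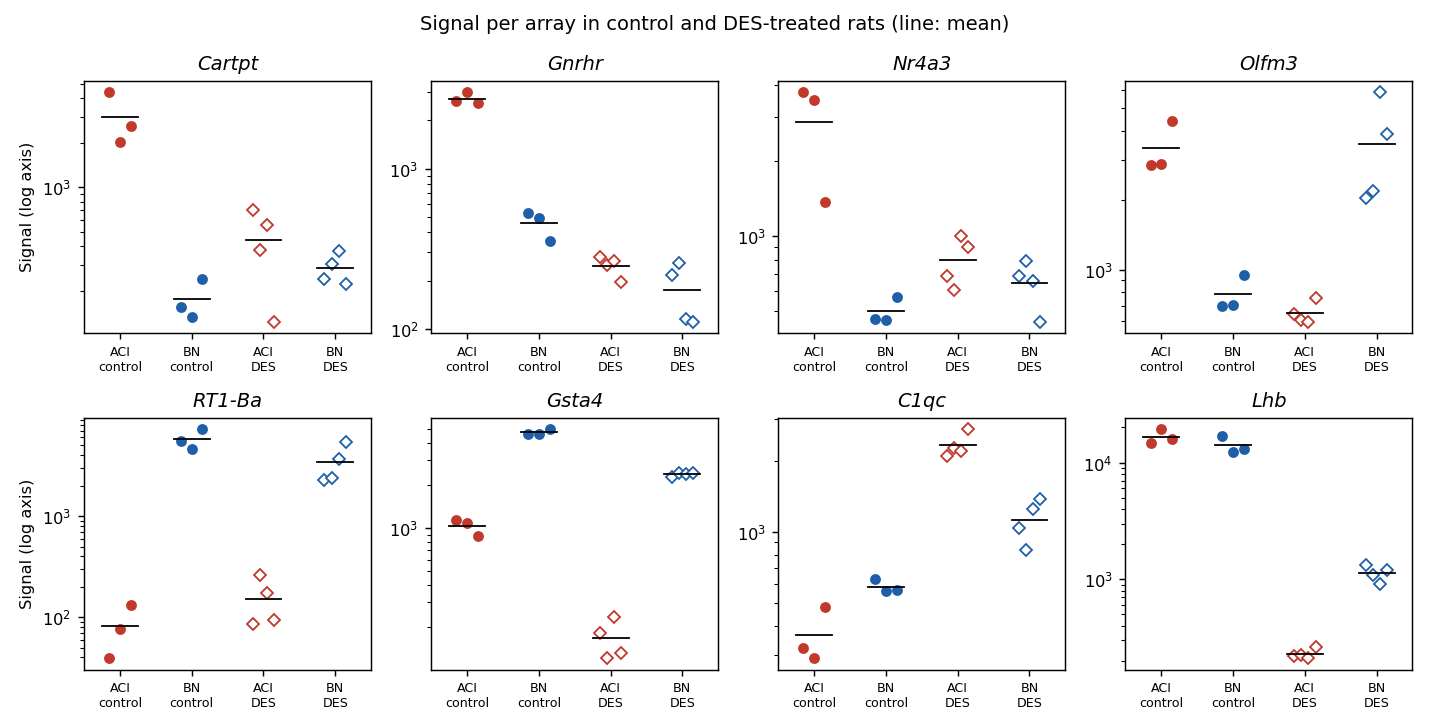
Signal per array on a log axis for 8 genes in ACI and BN control rats (filled circles, 3 each) and DES-treated rats (open diamonds, 4 each), with the group mean as a line. Cartpt and Gnrhr are higher in ACI controls and overlap after DES, RT1-Ba and Gsta4 are lower in ACI in both conditions, Olfm3 and C1qc change direction, and Lhb overlaps in controls and is lower in ACI after DES.

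Of the 15 leukocyte genes, 7 were called higher in ACI and none lower after DES, against 12.7% of all genes higher, with a median of 0.40 against -0.07 for all genes. The change of the difference was called for 8, 4 of them among the 5 called in controls. C1qc averaged 2320 in ACI and 1125 in BN (log2 difference 1.05), against 363 in ACI and 584 in BN controls (-0.69). Of the 35 detoxification genes, 21 were called lower and 4 higher after DES, against 15.7% and 12.7% of all genes, with a median of -0.76. Of 19 immediate early genes, 4 were called higher and none lower after DES, against 12.7% and 15.7% of all genes, with a median of 0.38. The gonadotroph list, in which the control strains differed only at Gnrhr, had 7 of 8 called lower in ACI after DES, against 15.7% of all genes. Lhb averaged 230 in ACI and 1137 in BN (log2 difference -2.22, adjusted p = 8.4e-12), and Fshb 197 in ACI and 394 in BN (-0.94). Tshb averaged 6439 in ACI and 30127 in BN after DES (-2.19). Drd2 kept its direction, with 5011 ± 169 in ACI and 1471 ± 454 in BN (SD, n = 4 each, log2 difference 1.81).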

How the data were processed

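Each deposited value is a linear signal intensity for 1 probe set, from 0.1 to 71813.9. The authors had scaled the arrays, and the mean after trimming 2% at each end was 500.1 to 500.2 throughout. The software that summarized the probes is not given in the sources used here. Array medians on the log2 scale lay within 0.313 of each other (limit 0.5), so no scaling was added, and no filter was used. After 16 was added and log2 taken, limma 3.58.1 (R 4.3.3) fitted 1 mean to each of the 6 groups over the 21 arrays, with moderated variances following the mean signal (22.2 degrees of freedom). Tests were two-sided, with Benjamini-Hochberg adjustment over all 31042 probe sets. An exact permutation test of 3 arrays against 3 cannot go below p = 0.10, so single genes were judged by the fit across all probe sets.

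Of the probe sets, 20826 had 1 gene symbol in the platform annotation, 436 several and 9780 none, and 350 called probe sets without a single symbol are not named. Genes were named by rule: the 15 largest differences of each sign among called genes without overlap whose higher group averaged over 200, a fixed set (Prl, Gh1, Lhb, Fshb, Cga, Tshb, Pomc, Myc, Pvt1, A1bg, Esr1, Drd2, Rnf6, Cwc25, Sparcl1 and Lcn2), and up to 4 called members per gene list. A1bg, near the floor, had a log2 difference of 0.83 (adjusted p = 0.561). Any other gene, list members included, was named after its values were seen. The members and the 46 lists were chosen with earlier results of these data known. On simulated data with 200 changed probe sets, the pipeline called 114, 6 of them falsely, and recovered 31% of log2 changes of 1 and 77% of changes of 2. The simulation drew independent normal noise and changed fewer probe sets than were called here, so these rates need not hold for the real arrays. Alternatives changed the filter, the value added, the scaling, the model and the arrays used. The number of arrays limits the precision.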

Additional observations from a re-analysis of the deposited data

Results flagged for a closer look

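The strain difference of control rats differed from that of DES-treated rats, by the limma test of the difference between them at an adjusted p under 0.05, for 43 of the 104 named genes. The values below are the control difference minus the DES difference on the log2 scale, and the control arrays enter both this test and the choice of most of the genes. A positive value means that ACI minus BN was more positive in control rats.

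Among the genes with the largest differences the value was 4.34 for Olfm3, 3.52 for Cartpt, 3.03 for Acsm5, 3.01 for Sema3e, 2.35 for Sostdc1, 2.20 for Arpp21, 2.07 for Nr4a3, 2.01 for Gnrhr, 2.01 for Krt19, 1.69 for H2-Q7-ps1 and 1.57 for Gsta4. It was -4.03 for C2cd4a and -1.92 for C5h8orf88. Hormone genes had positive values, with 2.47 for Lhb, 2.26 for Tshb, 1.01 for Fshb and 0.92 for Gh1, none of which was called in controls.

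Leukocyte and immune genes had negative values, with -1.86 for Laptm5, -1.74 for C1qc, -1.69 for Gbp2, -1.62 for Ptprc, -1.32 for C1qa and -0.88 for RT1-DMa. Secreted and matrix genes were mixed, with 3.02 for Dcn, 1.28 for Igfbp2, 1.09 for A2m, -1.47 for Serpinf1 and -1.49 for Pappa2. Receptors and channels gave 2.75 for Npy1r, 2.23 for Gria2, 1.49 for Fzd4, -0.50 for Kcnma1 and -0.91 for Sstr3. Regulators gave 1.62 for Per1, 1.10 for Nrip1, 0.86 for Pitx1, -0.56 for Six6 and -1.38 for Aurkb. The remaining genes gave 2.15 for Pkp2, a desmosomal protein, 1.12 for S100b, 0.53 for Ldha, -0.72 for Tfrc and -0.94 for Lgmn.

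In 8 of the 208 DES groups of 4 arrays looked at (104 genes in ACI and BN), 1 array stood apart from the other 3. Chance alone picks out about 1 in 20 such groups. These arrays had a signal of 57.6 for Ephx2, 590.4 for Laptm5, 724.1 for Gsta1 and 4295.5 for Kcnma1 in ACI, and 442.0 for Brcc3-ps7, 633.1 for Laptm5, 63.7 for Arc and 1048.1 for C3 in BN. Control groups of 3 arrays were too small for this check.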

How the results depend on the processing

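The ACI minus BN comparison called 1308 probe sets, and 2643 with arrays numbered 1 and 2 only and 338 with those numbered 3 and 4 only. The first set holds 2 control arrays per strain. The second holds 1 control array per strain, which is assumed to vary like the other groups. Leaving out 1 array gave 849 to 1117. The probe sets repeated with the same sign after DES numbered 687, 1041 with arrays 1 and 2, 170 with arrays 3 and 4, and 494 to 636 without 1 array. Those whose difference differed after DES numbered 429, 1003 with arrays 1 and 2, 173 with arrays 3 and 4, 769 with a block for the sets of numbers 1 and 2 against 3 and 4, and 266 to 363 without 1 array.

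The main fit did not pair samples by replicate number, and the labels do not say whether same-numbered samples were handled together. The deviations of same-numbered ACI and BN arrays correlated at 0.08, 0.15 and 0.21, and those of unlike-numbered arrays at -0.17 to 0.08. The best correlation was with the own number for 5 of the 6 arrays. With the replicate block the counts were 1764, 884 and 700.

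Of 93 named genes called, 57 kept the call without each array, 31 under all 20 alternatives and 55 under all but arrays 3 and 4 only. Myc, not called, was called under both blocks and with arrays 1 and 2. The sign turned for uncalled genes alone. Quantile scaling gave Fshb -0.003 and Tshb -0.1. Arrays 1 and 2 alone gave Fshb -0.01, Tshb -0.08 and Esr1 -0.17. Without 1 array, Fshb ranged from -0.05 to 0.19, Cga from -0.02 to 0.4, Tshb from -0.09 to 0.23, Pvt1 from -0.26 to 0.04 and Esr1 from -0.65 to 0.76. Probe sets near the floor give no reliable fold.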
